A study of Mus musculus with 16 samples.

Results

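Vomeronasal receptor gene bodies were examined in the chromatin of mouse spermatids. They were taken as the bodies, from annotated start to annotated end, of every autosomal gene that GENCODE vM21 (mm10) lists as protein-coding under a name beginning with Vmn1r or Vmn2r. The rule gave 329 bodies of 20807, 208 of them Vmn1r and the others Vmn2r. Vmn1r216 has 2 overlapping entries, so the 329 bodies carry 328 names. The rule uses gene names and no measured value, although the families were picked for study with earlier results of these data known.

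Haploid spermatids, sorted alive by DNA content from testes of non-mated 2-month-old males, were profiled by AutoCUT&RUN, in which an antibody tethers micrococcal nuclease and the released DNA fragments are sequenced from both ends. The antibodies were against H3K4me3 (found at active starts), H3K27me3 (placed by Polycomb), and H3K9me3 (the mark of constitutive heterochromatin), and an IgG antibody with no chromatin target served as control. WT animals (+/Y) were compared with KO siblings (ΔH2A.B/Y), which carry lesions in all 3 X-linked genes for the short histone variant H2A.B. There were 2 sibling pairs, and the sample titles carry 1 date code for all libraries of a pair, so that pair and date cannot be told apart. This gave 2 libraries for each of the 8 combinations of target and genotype. All KO animals descend from 1 mutant strain, made in hybrid zygotes and backcrossed to C57BL/6J.

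Vomeronasal receptors detect pheromones and other chemical signals in sensory neurons of the vomeronasal organ, where each neuron expresses one or a few receptor genes. Vmn1r proteins are G protein-coupled receptors with a short extracellular end and signal through Gαi2 in the apical neurons. Vmn2r proteins have a long extracellular domain, are encoded by several exons, and signal through Gαo in the basal neurons. Both families lie in tandem clusters that vary widely in copy number between species.

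The libraries held between 159611 (IgG) and 6746382 (H3K9me3) distinct fragments on the nuclear chromosomes. IgG was the shallowest target, and 1 H3K27me3 library (WT replicate 2) held 200457. Of the H3K9me3 fragments, 58.8% to 63.8% were autosomal, against 86.7% to 99.1% for the other targets. Within 1 kb of the start, H3K4me3 over the 10 spermatid markers averaged 1.47 to 2.19 times the mean over all genes, against at most 0.472 times for 5 spermatogonial, 0.0797 times for 7 Sertoli and Leydig, and 0.169 times for 3 vomeronasal neuron markers. Of the 10, 6 lay above the mean in every library, where 31.9% of all genes did. In this window Prm1, a protamine gene, was low, with a density of 0.767 fragments per 1000000 per kb against 4.16 for all genes. Over its whole body Prm1 had an H3K4me3 density of 4.82 ± 1.90. All 10 lay above the mean of all bodies in every H3K4me3 library, where 36.7% of all bodies did. The lesions in the H2A.B genes are shorter than the genes themselves, and the few fragments over the 3 genes (9 and 13 in the KO animals, 8 and 17 in the WT animals) check nothing.

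The highest H3K9me3 values lay over similar copies in 1 array, and the start of 5 of them is shown first so that the copies can be compared. These are the 5 bodies with the highest mean H3K9me3 density, all single-exon Vmn1r genes in an array of 65 Vmn1r genes at chr7:20099680-24063554. The lines give the first 100 bases of each, on the gene's own strand in GRCm38.p6, and capitals mark bases that differ from Vmn1r132 at the same place. The positions are chr7:21614092-21614191 (Vmn1r132, + strand), chr7:22790683-22790782 (Vmn1r158, - strand), chr7:20771185-20771284 (Vmn1r112, + strand), chr7:21098414-21098513 (Vmn1r121, - strand), and chr7:20138989-20139088 (Vmn1r93, - strand).
Vmn1r132: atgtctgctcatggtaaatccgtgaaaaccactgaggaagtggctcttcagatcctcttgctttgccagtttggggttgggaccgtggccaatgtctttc
Vmn1r158: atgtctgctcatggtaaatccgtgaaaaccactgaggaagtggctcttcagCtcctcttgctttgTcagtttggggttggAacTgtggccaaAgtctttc
Vmn1r112: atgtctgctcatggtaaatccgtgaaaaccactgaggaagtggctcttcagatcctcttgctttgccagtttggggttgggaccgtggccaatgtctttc
Vmn1r121: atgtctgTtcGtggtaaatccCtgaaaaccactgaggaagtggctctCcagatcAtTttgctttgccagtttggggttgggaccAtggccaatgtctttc
Vmn1r93: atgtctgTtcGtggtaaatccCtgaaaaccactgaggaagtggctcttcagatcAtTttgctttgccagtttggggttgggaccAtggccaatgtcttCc
Over the whole body, Vmn1r112 matched Vmn1r132 at 893 of 895 aligned positions (99.8%). Identity to Vmn1r132 was 89.7% for Vmn1r158, 86.4% for Vmn1r121, and 84.8% for Vmn1r93. In Vmn1r132, Vmn1r112, and Vmn1r93 none of the 25-base words, the length of 1 sequenced read end, occurs once in the genome. A fragment from such a copy could be placed on another copy by the aligner, so values of single genes in the array are uncertain.

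Among the 4 targets, H3K9me3 was the one found above IgG over vomeronasal receptor bodies. Density is given as distinct fragments per 1000000 fragments of the library and per kb of body. Over the Vmn1r bodies, H3K9me3 density was 0.477 and 0.610 in the KO libraries and 0.435 and 0.526 in the WT libraries, against 0.196 and 0.274 (KO) and 0.126 and 0.297 (WT) for IgG. The H3K9me3 libraries were all above the IgG libraries. Over the Vmn2r bodies, H3K9me3 density was 0.717 and 0.722 (KO) and 0.677 and 0.709 (WT), against 0.314 and 0.360 (KO) and 0.334 and 0.400 (WT) for IgG. These groups did not overlap either, and the spread of H3K9me3 over Vmn2r bodies was small.

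Taken over both families, H3K9me3 density was 0.648 ± 0.0344 and IgG density 0.314 ± 0.0464 (SD, n = 4 libraries each), a log2 difference of 1.06 (exact two-sided permutation test, p = 0.0286, the smallest that 4 against 4 libraries allow). The test exchanges libraries freely, although each animal gave 1 library of each target. With H3K9me3 and IgG paired by animal (a replicate block, as an exact sign-flip permutation), p was 0.125, the smallest that 4 animals allow, so that no comparison of a mark with IgG can pass 0.05 in the paired form. The size of the difference varied with the counting, from 0.68 with every deposited fragment to 1.57 per 1000000 autosomal fragments and 1.98 with the mean of the bodies' own densities (exact permutation p = 0.0286 for each). Without the 154 bodies of chromosome 7 it was 0.10 on the log2 scale (exact permutation p = 0.514), and over the 66 bodies in which at least 80% of 25-base words are unique it was 0.38 (exact permutation p = 0.314). Only 19 of these 66 lie on chromosome 7, so this subset changes the chromosomes along with the sequence. Those 19 bodies had an H3K9me3 density of 0.367 to 0.712 and an IgG density of 0.102 to 0.368 over the libraries, and 15 of them lay above the mean of all bodies in every H3K9me3 library, where 7.5% of all bodies did. Whether shared sequence had a part in the signal was not tested.

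**Figure D1:**
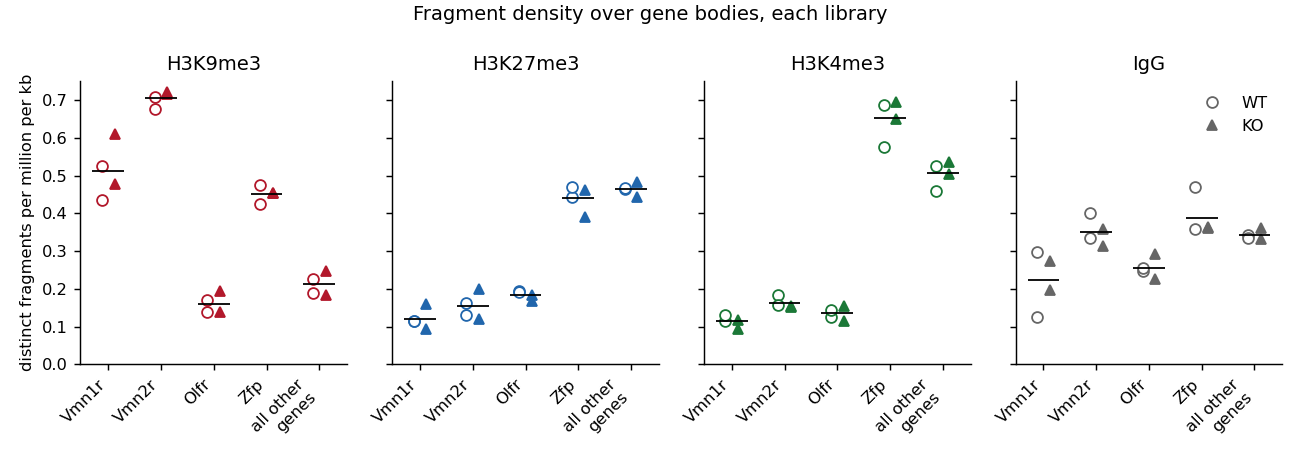
Distinct fragments per 1000000 per kb (y axis) over the gene bodies of 5 sets (x axis), in 1 panel per target; open circles are WT and filled triangles KO libraries, and lines are means over 4 libraries. H3K9me3 was highest over Vmn2r (mean 0.706) and Vmn1r (mean 0.512), whereas H3K27me3 and H3K4me3 over both families were below the mean of all other genes.

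H3K9me3 over the receptors was also above that over the 20478 other autosomal protein-coding bodies. The ratio was 3.10 ± 0.329 for H3K9me3 and 0.918 ± 0.162 for IgG (SD, n = 4), a log2 difference of 1.77 (exact permutation p = 0.0286). It was smaller without chromosome 7 (0.81), over bodies with at least 80% unique words (1.09), and with every deposited fragment (1.07), each with an exact permutation p of 0.0286. Of the 329 bodies, 182 (55.3%) lay above the mean density of all autosomal bodies in 4 of 4 H3K9me3 libraries, where 7.5% of all bodies did. This held for 104 Vmn1r (50%) and 78 Vmn2r (64.5%), and 84 receptor bodies (25.5%, against 80.5% of all bodies) lay below the mean in every H3K9me3 library.

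For scale, the 1128 olfactory receptor (Olfr) bodies, another family of clustered chemosensory receptors, had 0.759 ± 0.0224 times the H3K9me3 density of the other genes. The 385 Zfp bodies, zinc finger genes of which many lie in repeated clusters, had 2.16 ± 0.271 times. A set of 16 other genes, among them predicted genes such as Gm10800 and Gm10722, had more than 10 times the mean IgG density in every IgG library and supplied 39.3% to 42.8% of the H3K9me3 fragments over other gene bodies. Without them the receptors had 5.28 ± 0.613 times the H3K9me3 density of other genes and 1.19 ± 0.138 times the IgG density. The Olfr and Zfp ratios above include the 16 genes, so they cannot be set beside 5.28 and do not place Olfr relative to the remaining genes. Above the mean of all bodies in every H3K9me3 library lay 11.7% of Olfr and 25.2% of Zfp bodies, against 6.73% of all other genes.

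Chromosome 7 held most of the signal. Its 154 receptor bodies had an H3K9me3 density of 1.14 ± 0.0706 and an IgG density of 0.337 ± 0.0369, against 0.316 ± 0.0244 and 0.298 ± 0.0549 for the 175 bodies elsewhere (SD, n = 4). On chromosome 7, 134 bodies (87.0%) lay above the mean of all bodies in every H3K9me3 library, and on the other chromosomes 48 (27.4%). Among bodies with at least 80% unique 25-base words, the values were 0.551 ± 0.143 for 19 bodies on chromosome 7 and 0.190 ± 0.0712 for 47 elsewhere, beside IgG densities of 0.260 ± 0.115 and 0.207 ± 0.0467.

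The 15 groups of 1 family on 1 chromosome are given next. H3K9me3 exceeded IgG without overlap of the libraries in 7 groups and lay below IgG without overlap in 1 group, the 9 Vmn2r genes of chromosome 6. Each of these, the 7 higher and the 1 lower, had an exact permutation p of 0.0286, and after Benjamini-Hochberg adjustment over the 15 groups an adjusted p of 0.0536, so none passed 0.05. These tests used log2 of density plus 0.05, because some groups held no IgG fragment. The 7 include such groups, among them Vmn1r238 of chromosome 18, where a difference from IgG was not detectable at this depth (below). The count of 7 of 15 fell to 4 of 15 with every deposited fragment, and to 1 of the 8 groups that have bodies with at least 80% unique words.

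On chromosome 7, the 103 Vmn1r bodies had an H3K9me3 density of 0.956 ± 0.121 and the 51 Vmn2r bodies one of 1.23 ± 0.0613, with IgG at 0.251 ± 0.0894 and 0.376 ± 0.0201. The 2 Vmn2r genes of chromosome 14 reached 2.04 ± 0.142 (IgG 0.297 ± 0.427, from 5 fragments). They are Vmn2r88 and Vmn2r89, and Vmn2r89 (chr14:51451857-51464172) was the higher, at 2.64 and 2.08 (KO) and 2.11 and 2.42 (WT). In Vmn2r89, 63.3% of the 25-base words are unique.

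The 32 Vmn2r bodies of chromosome 17 had an H3K9me3 density of 0.406 ± 0.0573 against 0.297 ± 0.0377 for IgG. Vmn2r115 led this group, at 1.59 and 1.30 (KO) and 1.44 and 1.36 (WT). The remaining groups of the 7 held 1 or 2 genes each, and their IgG counts were 2 for Vmn2r-ps159 of chromosome 4 and 0 for the others. Vmn1r2 and Vmn1r3 of chromosome 4 had an H3K9me3 density of 1.54 over the 4 libraries together, from 239 fragments, at least 2.72-fold higher than the IgG density of 0.566 that a count of 0 allows (3 fragments over 4 libraries, for counting error). Vmn1r238 of chromosome 18 had 2.35, from 50 fragments, below the IgG density of 4.12 that a count of 0 allows, so a difference from IgG was not detectable there at this depth.

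By contrast, the large Vmn1r groups of chromosomes 6 and 13 did not differ from IgG beyond the spread of the libraries (exact permutation p = 0.771 and 0.314). The 51 Vmn1r bodies of chromosome 6 had 0.166 ± 0.0327 for H3K9me3 and 0.210 ± 0.114 for IgG, and the 36 of chromosome 13 had 0.159 ± 0.0365 and 0.196 ± 0.0514. Their leading genes were Vmn1r29 (mean 0.627) and Vmn1r215 (mean 0.533). The Vmn2r groups of chromosomes 3, 5, 6, and 10 were led by Vmn2r7 (0.486), Vmn2r13 (0.765), Vmn2r27 (0.339), and Vmn2r87 (0.775), and the 14 Vmn1r genes of chromosome 17 by Vmn1r227 (0.614). The single Vmn1r gene of chromosome 1, Vmn1r1, had 5 H3K9me3 fragments in the 4 libraries together.

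**Figure D2:**
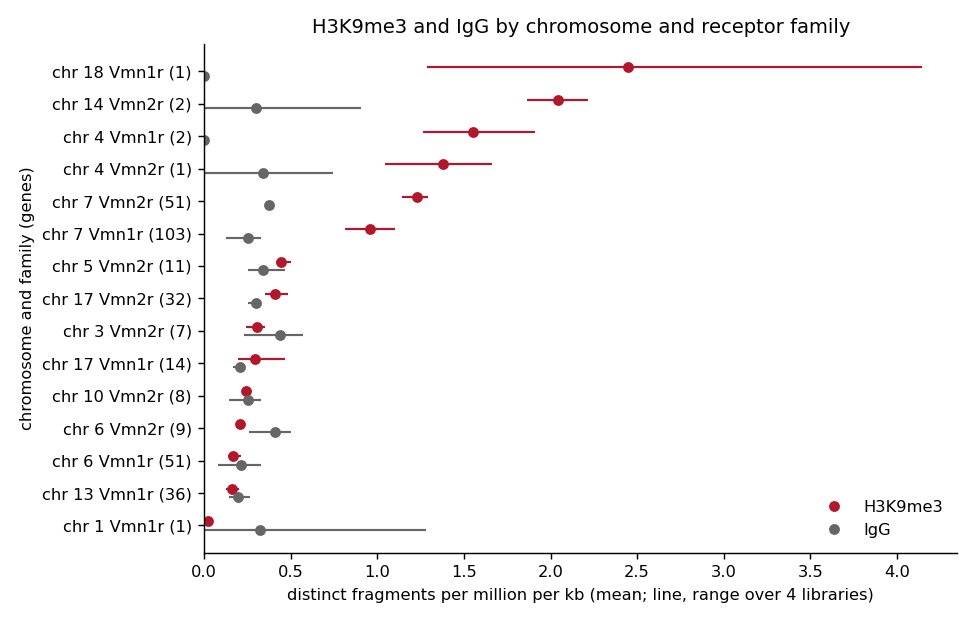
Distinct fragments per 1000000 per kb (x axis) of H3K9me3 and IgG for each chromosome and family (y axis, number of genes in parentheses), as the mean (point) and range (line) over 4 libraries. H3K9me3 lay clear of IgG for the chromosome 7 and chromosome 14 groups and overlapped IgG for the Vmn1r groups of chromosomes 6 and 13.

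Joined where the gap between neighbors was at most 1 Mb, the receptors formed 26 clusters, 7 of them of 1 gene. The array of 65 Vmn1r genes on chromosome 7 spans 3964 kb, of which the bodies cover 175 kb. Its bodies had an H3K9me3 density of 1.501 ± 0.140, and the DNA between all annotated protein-coding bodies one of 2.64 ± 0.185, with IgG at 0.263 over the bodies and 0.691 between them. The single bodies ranged from 0.201 (Vmn1r183, the last of the array) to 3.76 (Vmn1r132), with a median of 2.50. A median of 2.80% of the 25-base words in these bodies are unique. A median of 68.8% of bases are masked (lower case) in the reference sequence, which does not tell the kind of repeated sequence.

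Another cluster of chromosome 7, chr7:7231327-13220657, holds 24 Vmn1r and 28 Vmn2r genes and had H3K9me3 densities of 1.44 ± 0.0842 over bodies and 1.63 ± 0.0861 between them. At chr6:66552180-66810609, 8 Vmn1r genes had 0.0421 ± 0.0185 over bodies and 0.369 ± 0.0764 between them, whereas IgG had no fragment in the 54.9 kb of these bodies and a density of 0.471 ± 0.130 between them. Of the 18 clusters with at least 10 kb between bodies, 14 had more H3K9me3 between the bodies than over them. The same was seen for IgG in 17, for H3K27me3 in 17, and for H3K4me3 in 16 clusters, so lower density over bodies was shared by all targets.

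Within the array, the 5 leading genes had similar values. Vmn1r132 had 2.32 and 4.27 (KO) and 4.002 and 4.47 (WT), from 76 H3K9me3 fragments in all. Vmn1r158 had 2.73 and 4.13 (KO) and 3.17 and 4.32 (WT). Vmn1r112, nearly identical to Vmn1r132, had 2.82 and 3.20 (KO) and 3.27 and 4.47 (WT). KO and WT values overlapped in Vmn1r132 and Vmn1r158. In Vmn1r112 both KO values were below both WT values, and 14.2% of the 8526 bodies with at least 40 H3K9me3 fragments had genotypes that did not overlap, in either direction. The means of Vmn1r121 and Vmn1r93 were 3.28 ± 0.794 and 3.17 ± 0.439, with overlapping ranges. Across the 5 bodies together, 2 IgG fragments were counted.

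At the other end, among bodies of at least 5 kb, Vmn1r33 (chr6:66610543-66618282) held no H3K9me3 fragment in any library. Vmn1r39 and Vmn1r21 held 4 fragments each, and Vmn1r1 and Vmn1r32 held 5 each, for mean densities of 0.0234 to 0.0292. In 4 of these 5 the share of unique 25-base words was 80.7% to 89.2%, and in Vmn1r33 it was 78.4%. All but Vmn1r1 lie on chromosome 6.

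Bodies with less unique sequence had more H3K9me3. The 83 bodies with under 20% unique 25-base words, 73 of them on chromosome 7, had an H3K9me3 density of 1.59 ± 0.0882 and an IgG density of 0.480 ± 0.0743. The density was 0.787 ± 0.0436 for the 51 bodies from 20% to 50%, 0.433 ± 0.0511 for the 129 from 50% to 80%, and 0.287 ± 0.0856 for the 66 above. IgG fell along the same order, to 0.404 ± 0.0637, 0.255 ± 0.0451, and 0.222 ± 0.0637. Across the 329 bodies, which share libraries and repeats, log2 H3K9me3 density and the unique share had a Pearson r of -0.70 and a Spearman rho of -0.65. Within the 154 bodies of chromosome 7 r was -0.74, and within the 175 elsewhere it was -0.37.

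**Figure D3:**
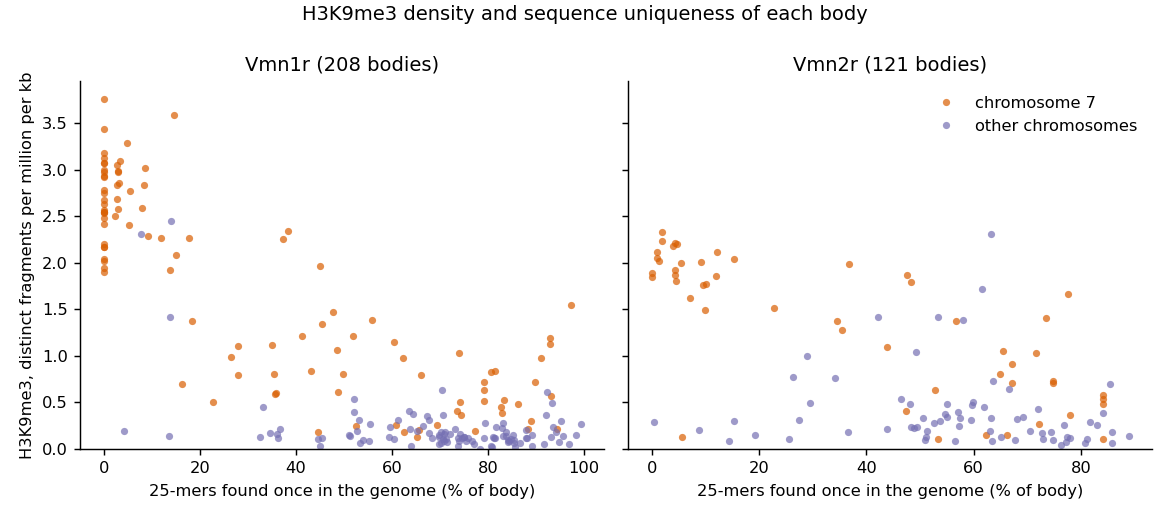
Mean H3K9me3 density over 4 libraries (y axis, distinct fragments per 1000000 per kb) against the percentage of 25-base words of a body that occur once in the genome (x axis), 1 point per body, by family and chromosome. The chromosome 7 Vmn1r bodies with almost no unique words reach 3.76 (Vmn1r132), and bodies of other chromosomes lie mostly lower.

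No difference between Vmn1r and Vmn2r in H3K9me3 was detected beyond what IgG showed. The log2 ratio of Vmn1r to Vmn2r density was -0.48 ± 0.18 for H3K9me3 and -0.73 ± 0.47 for IgG (SD, n = 4), a difference of 0.25 (exact permutation p = 0.400). With H3K9me3 and IgG paired by animal, p was 0.125 (exact sign-flip permutation), the smallest that 4 animals allow. The difference was 0.08 without WT replicate 1, whose IgG library held 32 fragments over Vmn1r bodies, against 74 to 85 in the others. The direction depended on the counting: with every deposited fragment, repeats of the same coordinates included, the difference was -0.42 (exact permutation p = 0.0286), and without chromosome 7 it was -0.16. The same difference was 0.38 for H3K27me3 (exact permutation p = 0.114) and 0.21 for H3K4me3 (exact permutation p = 0.486). Without WT replicate 1 these were 0.11 and 0.04, and with every deposited fragment 0.02 and -0.18. The 66 Vmn1r genes with 1 exon region, 54 of them on chromosome 7, had an H3K9me3 density of 1.84 ± 0.170. The 142 with introns, 49 of them on chromosome 7, had 0.444 ± 0.0758. The 12 single-exon genes outside chromosome 7 had 0.467 ± 0.138. Genes with introns outside chromosome 7 were not computed apart, so 0.467 cannot be set beside 0.444.

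In Vmn2r genes, exons and introns were compared. H3K9me3 density was 0.648 ± 0.0415 over exons and 0.726 ± 0.0138 over introns, and IgG density was 0.212 ± 0.00408 and 0.400 ± 0.0496. The log2 ratio of exon to intron density was -0.17 ± 0.07 for H3K9me3 and -0.90 ± 0.17 for IgG, a difference of 0.74 (exact permutation p = 0.0286). For H3K27me3 and H3K4me3 the ratio was -0.26 ± 0.29 and -0.38 ± 0.30, on average also above that of IgG. A higher ratio than in IgG was thus not particular to H3K9me3, and the IgG libraries held only 32 to 54 fragments over these exons. Over bodies with at least 80% unique words the difference was 2.21 (exact permutation p = 0.114), and with every deposited fragment it was 0.25 (exact permutation p = 0.0286). Over the Vmn1r bodies the ratio was 0.21 ± 0.06 for H3K9me3 and -0.22 ± 0.39 for IgG.

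H3K27me3 and H3K4me3 were low over the receptors. H3K27me3 density over the Vmn1r bodies was 0.0939 and 0.161 (KO) and 0.114 and 0.115 (WT), the last value from 36 fragments. Over the Vmn2r bodies it was 0.121 and 0.201 (KO) and 0.130 and 0.162 (WT). The other genes averaged 0.465 ± 0.0157. Relative to IgG, H3K27me3 over both families was lower by 1.14 on the log2 scale, and relative to the other genes and to IgG it was lower by 1.58 (exact permutation p = 0.0286 for both). With the mean of the bodies' own densities the difference from IgG was -0.80 (exact permutation p = 0.0571). No receptor body lay above the mean of all bodies in every H3K27me3 library, where 18.6% of all bodies did, and 269 (81.8%, against 60.3% of all bodies) lay below it in every one. Low H3K27me3 was shared by the Olfr bodies, of which 1.51% lay above and 78.7% below the mean in every library. The scale is per 1000000 fragments of the same target, so these values compare where fragments fell and not how much mark was present.

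In the 3 receptors with the highest H3K27me3 density among those with at least 20 fragments, much of it lay in a short stretch. Vmn2r59 (chr7:42011284-42059023) had 1.23 and 0.647 (KO) and 1.31 and 0.418 (WT), and 34.9% of its 430 fragments fell in the step 9 to 10 kb after the start. The pseudogenes Hmgb1-ps7 and Gm7224 overlap it. Vmn1r43 had a mean of 0.554 ± 0.218, with 46.0% of 87 fragments 9 to 10 kb after the start, and overlaps Vmn1r42. Vmn2r85 (0.524 ± 0.289) had 68.8% of 48 fragments in the last step of its body, from 15 kb after the start. Vmn2r13 and Vmn1r88 had means of 0.451 ± 0.200 and 0.418 ± 0.111, and the pseudogene Gm4879 overlaps Vmn1r88. In each of these 5 bodies the WT replicate 2 library held 4 fragments or fewer.

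H3K4me3 density over the Vmn1r bodies was 0.0927 and 0.118 (KO) and 0.114 and 0.130 (WT), and over the Vmn2r bodies 0.152 and 0.155 (KO) and 0.184 and 0.157 (WT), against 0.506 ± 0.0346 for the other genes. The log2 difference from IgG was -1.08, and that relative to other genes and IgG -1.64 (exact permutation p = 0.0286 for both). In every H3K4me3 library 5 receptor bodies (1.52%) lay above the mean of all bodies, where 36.7% of all bodies did, namely Vmn2r86, Vmn1r183, Vmn1r21, Vmn2r107, and Vmn1r53, the last with 14 fragments, and 306 (93.0%, against 48.1%) lay below it. Low H3K4me3 was likewise shared by the Olfr bodies, with 2.13% above and 94.1% below the mean in every library.

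The highest H3K4me3 was over Vmn2r86 (chr10:130441562-130456050), at 1.95 and 2.13 (KO) and 1.76 and 1.71 (WT), more than 3 times the mean of the other genes in each library. Of its 217 body fragments, 47 fell 11 to 12 kb after the start. The window from 1 kb before to 1 kb after the start, partly outside the body, held 23. In Vmn1r21 and Vmn1r226 the step with the most H3K4me3 was the first kb of the body, with 30 of 55 and 20 of 48 fragments. Their densities were 1.38 and 0.980 (KO) and 0.679 and 0.732 (WT) for Vmn1r21, and 0.677 ± 0.264 on average for Vmn1r226. Vmn1r21 was also among the 5 bodies with the least H3K9me3. Vmn1r21 overlaps the annotated transcript Gm44114 and Vmn1r183 the antisense gene Gm36694, and fragments carry no strand that could tell them apart. In Vmn1r183 (1.08 ± 0.329) 50 of 90 fragments fell 9 to 10 kb after the start, and in Vmn2r96 (0.641 ± 0.292) 57 of 179 fell 39 to 40 kb after it.

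Within 1 kb of the start sites, H3K4me3 density was 0.146 ± 0.00830 for Vmn1r and 0.155 ± 0.0395 for Vmn2r, beside 4.23 ± 0.439 for all other genes and 0.144 ± 0.0165 for Olfr. IgG density in the same windows was 0.277 ± 0.0401 for Vmn1r and 0.242 ± 0.119 for Vmn2r. The log2 ratio of receptors to other genes was lower for H3K4me3 than for IgG by 1.98 (exact permutation p = 0.0286). The 16 genes of high IgG density supplied 73.9% to 85.4% of the IgG fragments in the windows of other genes, and without them the H3K4me3 ratio was lower by 4.29. With every deposited fragment it was lower by 3.10. Over the 66 bodies with at least 80% unique words the difference was 0.42 lower (exact permutation p = 0.714).

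**Figure D4:**
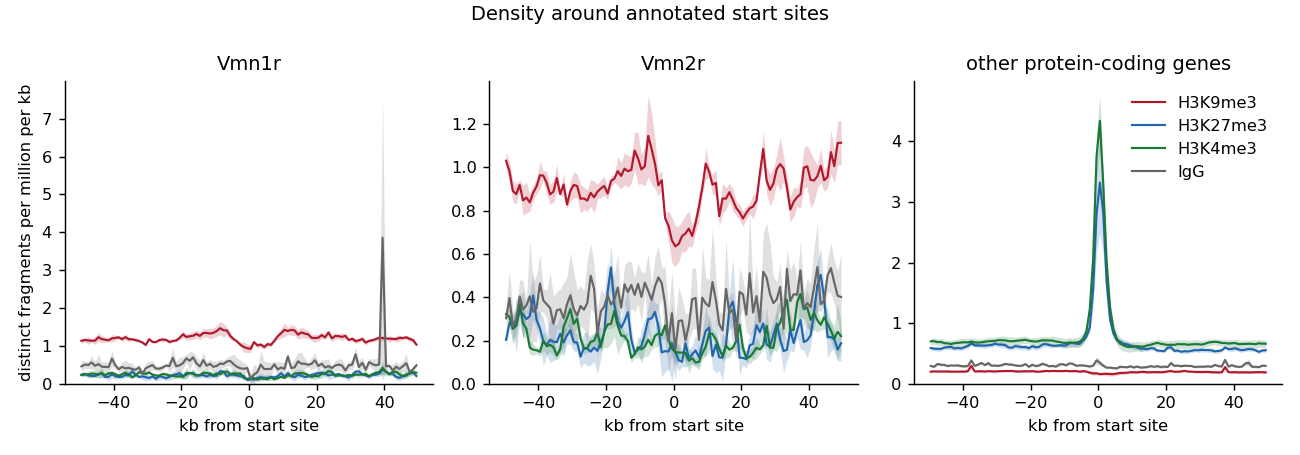
Mean density in 1-kb steps (y axis, distinct fragments per 1000000 per kb, separate scales) from 50 kb before to 50 kb after the start site (x axis), as the mean and SD band over 4 libraries; the other genes are without the 16 of high IgG density. The other genes peaked at the start in H3K4me3 and H3K27me3 and the receptors did not; the IgG spike at 39 to 40 kb in the Vmn1r panel came mainly from the surroundings of Vmn1r185, with 525 of 603 fragments.

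Around the start, H3K9me3 was broad. From 20 to 2 kb before Vmn1r starts it was 1.29 ± 0.0921, within 2 kb of the start 0.984 ± 0.0872, and from 2 to 20 kb after it 1.23 ± 0.0664. For Vmn2r the same windows had 0.981 ± 0.0660, 0.669 ± 0.0832, and 0.8291 ± 0.0333. IgG was also lower near the start, at 0.539 ± 0.0654, 0.299 ± 0.103, and 0.476 ± 0.0624 for Vmn1r. For the other genes without the 16, H3K9me3 within 2 kb of the start was 0.167 ± 0.0272.

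RefSeq promoters, from 250 bases before to 50 after the RefSeq start (GRCm38.p6), were found for 297 of the 328 names, and in 166 of these the RefSeq start lay within 1 kb of the GENCODE start. They had a median of 1 CG dinucleotide, against 15 for all 15687 matched autosomal genes. In 77 (25.9%) there was no CG, compared with 4.76% of all, and 1 (0.337%) had 10 or more, compared with 59.9% of all. The 925 Olfr promoters also had a median of 1 CG, with 33.9% without CG, and 0.216% with 10 or more. The receptor promoter with 10 or more, Vmn2r29, has its RefSeq start 31.0 kb from the GENCODE start. The promoters of Vmn2r86 (chr10:130455845-130456144, - strand), the receptor with the most H3K4me3, and of Vmn1r112 (chr7:20770935-20771234, + strand), from the array, are shown with each CG in capitals.
Vmn2r86: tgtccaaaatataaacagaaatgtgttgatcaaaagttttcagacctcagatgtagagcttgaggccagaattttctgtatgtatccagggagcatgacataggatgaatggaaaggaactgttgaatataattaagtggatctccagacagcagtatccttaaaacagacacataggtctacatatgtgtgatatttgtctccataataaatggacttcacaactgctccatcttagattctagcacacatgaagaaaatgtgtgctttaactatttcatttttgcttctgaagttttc
Vmn1r112: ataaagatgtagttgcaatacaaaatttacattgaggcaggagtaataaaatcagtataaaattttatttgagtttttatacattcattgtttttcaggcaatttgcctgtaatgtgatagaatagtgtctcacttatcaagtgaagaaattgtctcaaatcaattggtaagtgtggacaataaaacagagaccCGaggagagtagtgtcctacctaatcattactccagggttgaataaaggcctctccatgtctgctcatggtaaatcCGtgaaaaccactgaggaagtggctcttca
Vmn2r86 had 0 and Vmn1r112 had 2 CG dinucleotides. The motif searched was CG, which reads the same on both strands.

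Other genes of vomeronasal signaling were counted in the same way. Of 11 transduction genes, 1 (Gng8) lay above the mean of all bodies in every H3K9me3 library, of 4 vomeronasal formyl peptide receptors 1 (Fpr-rs6), of 10 nonclassical MHC molecules of the H2-Mv group and their partner B2m 0, and of 12 genes for the development or wiring of these neurons 2 (Neurog1 and Kirrel2), where 7.5% of all bodies did. These 4 are named for having passed, after their values were seen. Trpc2, the channel of vomeronasal transduction, had a body density of 0.0450 ± 0.0315, and Omp, an olfactory marker protein, had no H3K9me3 fragment. Gnai2 and Gnao1, the G protein subunits used with Vmn1r and Vmn2r, had 0.0551 ± 0.0276 and 0.0418 ± 0.0261. Fpr-rs3, a formyl peptide receptor that lies on chromosome 17, had 0.431 ± 0.222. Of the other formyl peptide receptors, named after their values were seen, Fpr-rs7 had 0.5003 ± 0.317, Fpr-rs6 0.344 ± 0.0470, and Fpr-rs4 0.0513 ± 0.103, and no IgG fragment fell in any of the 4 bodies. For H3K4me3 within 1 kb of the start, 1 of the 11 transduction genes, Gnai2, lay above the mean in every library, where 31.9% of all genes did.

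KO and WT spermatids were then compared over the receptors. The log2 difference in H3K9me3 density, KO minus WT, was 0.09 in pair 1 and 0.07 in pair 2. The spread between replicates of the same genotype was 0.07 (pooled SD on the log2 scale). That spread contains the difference between pairs and is not the spread of the paired differences. For H3K27me3 the pairs gave -0.15 and 0.35, for H3K4me3 -0.28 and -0.05, and for IgG 0.04 and -0.15. With 2 libraries against 2, the exact permutation test cannot go below p = 0.333, and the 4 targets gave p = 0.667, 1, 0.333, and 1. No difference was detectable at this size, and the H3K9me3 difference turned to -0.11 with every deposited fragment.

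Gene by gene, 240 of the 329 bodies held enough H3K9me3 fragments for a test (at least 40 over the 4 libraries), and 26 and 37 did for H3K27me3 and H3K4me3. In limma-voom over all autosomal protein-coding genes with Benjamini-Hochberg adjustment, no receptor was called for any mark, and neither was any of the 8526, 8185, and 13721 genes tested (0% called). At an unadjusted p under 0.05 limma-voom gave 2, 0, and 0 receptors, beside 3, 18, and 25 of all genes tested. In limma-trend the receptor counts were the same, beside 3, 60, and 46 of all genes, and there was no call. The median log2 difference of H3K9me3 in limma-voom was 0.02 for the 240 receptors and -0.08 for all genes tested. These fits left the sibling pair out, although same-numbered libraries deviated together (correlation over genes 0.737 for H3K9me3). Differences between pairs thus stayed in the residual spread, and fewer genes passed an unadjusted 0.05 than chance alone would give. The absence of calls therefore does not show that no gene changed.

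The sibling pair as a block changed the H3K9me3 result. In limma-voom with the pair in the model, 16 of 8526 genes (0.188%) were called, and 2 were receptors, both higher in KO. At an unadjusted p under 0.05 this limma-voom fit gave 20 of 240 receptors and 783 of 8526 genes for H3K9me3. It gave 1 of 26 receptors and 151 of 8185 genes for H3K27me3, and 2 of 37 receptors and 738 of 13721 genes for H3K4me3. Vmn2r66 (chr7:84985366-85012268, 84.2% unique words) had 0.744 and 0.730 (KO) and 0.224 and 0.453 (WT), from 135, 103, 37, and 61 fragments. Its log2 difference was 1.18 ± 0.21 (SE; limma-voom adjusted p = 8.6e-05 with the block, 0.99996 without). The pairs differed in size, with 0.744 in KO against 0.224 in WT in pair 1, and 0.730 against 0.453 in pair 2. Vmn1r73 (chr7:11730266-11762081, 74.0% unique words) had 1.19 and 1.27 (KO) and 0.854 and 0.791 (WT). Its log2 difference was 0.57 ± 0.15 (SE; limma-voom adjusted p = 0.0496 with the block). In both genes the KO libraries were above the WT libraries, as in 3.95% of the 8526 bodies. With 4 libraries and the pair in the model, little residual spread is left for each gene. The SE and adjusted p of both genes therefore rest mostly on variance borrowed from other genes, and not on replication within the gene.

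Fragment length over the receptors differed between KO and WT in the same direction for each target. The ratio taken was that of fragments of at most 120 bp, below the size of a nucleosome, to those of at least 150 bp, of nucleosome size or longer. It was 0.260 and 0.611 (KO) and 0.173 and 0.400 (WT) for H3K9me3. It was 0.571 and 0.948 (KO) and 0.289 and 0.398 (WT) for H3K4me3. Each pair had the higher ratio in KO for every target. The log2 differences in pairs 1 and 2 were 0.59 and 0.61 for H3K9me3, 0.82 and 0.66 for H3K27me3, 0.98 and 1.25 for H3K4me3, and 1.11 and 0.73 for IgG.

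Over all other genes, KO also exceeded WT in each pair, by 0.40 and 0.33 for H3K9me3, 0.66 and 0.71 for H3K27me3, 0.70 and 0.97 for H3K4me3, and 0.23 and 0.47 for IgG. These genes include the 16 of high IgG density. Without the 16, the H3K9me3 ratio of the other genes was 0.265 and 0.611 (KO) and 0.179 and 0.424 (WT), near that over the receptors. The H3K4me3 ratio was then 0.553 and 0.612 (KO) and 0.338 and 0.312 (WT). The exact permutation p over the receptors was 0.667 for H3K9me3, 0.667 for H3K27me3, and 0.333 for H3K4me3, the last being the smallest that 2 against 2 libraries allow. For H3K9me3 and H3K27me3, the ratio of KO replicate 1 lay below that of WT replicate 2, so that the genotypes overlapped across pairs.

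**Figure D5:**
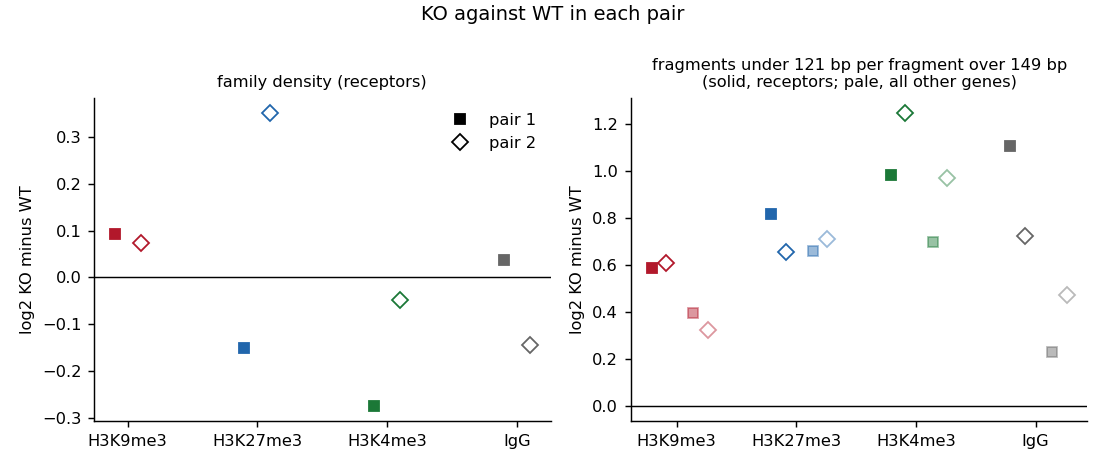
Log2 KO minus WT (y axis) in sibling pair 1 (filled squares) and pair 2 (open diamonds) for each target (x axis), for the density over the receptors (left) and for the ratio of short to long fragments (right, receptors in full color and all other genes, with the 16 of high IgG density, pale). Density differences lay within 0.35 of 0, and the fragment ratio of KO exceeded that of WT in each pair and target.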

How the data were processed

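Fragment lists of 16 AutoCUT&RUN libraries were used, 1 per library, as positions and lengths of mapped fragments. Per the study's methods, the authors sequenced paired 25-base reads, aligned them to mm10 with Bowtie2 (2.3.4.3 in the submitters' processing notes), and state that PCR duplicates were removed. The deposited lists are unscaled and not pooled, and still hold lines with identical coordinates (33.6% to 83.4% of lines per library), so each distinct fragment was counted once. The methods name another version than the notes, and list Bowtie2 options that do not ask for several alignments per read. In that default mode 1 alignment is reported for each read, also where several places match equally well.

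A fragment was assigned to a gene body by its midpoint. Densities are per 1000000 distinct nuclear fragments and per kb, and Poisson intervals were computed at 95%, for counting error only. Unique 25-base words were searched on both strands of GRCm38.p6. Targets were compared by exact two-sided permutation tests over libraries, and KO with WT per gene by limma-voom (limma 3.58.1, R 4.3.3), which was tested on simulated data. The simulated data held no difference between pairs, so that test does not tell how the fit without the pair behaves on these libraries. Genes needed 40 fragments over 4 libraries and were called at an adjusted p under 0.05. Each group holds 2 animals. Same-numbered KO and WT libraries come from siblings and share a date code in their titles, and they deviated together (correlation over genes 0.737 for H3K9me3, 0.379 for H3K27me3, 0.458 for H3K4me3, and 0.352 for IgG), so replicate numbers pair the samples.

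The receptor families and the gene lists were picked with earlier results of these data known, and the members of the families were then taken by name alone. Named receptors are, for each mark, the 5 with the highest mean density among those with at least 20 fragments, for H3K9me3 also the 5 lowest of at least 5 kb, the leading gene of each chromosome and family, and those called in KO against WT. The other receptors, among them Vmn2r107, Vmn1r53, and Vmn2r29, were named after their values were seen. Of the pathway lists, 5 genes were named by their role. Alternatives were every deposited fragment, any overlap, bodies with at least 80% unique words, other totals and size classes, each animal (1 KO or WT replicate, in all targets compared) left out, and the pair as a block. Leaving out chromosome 7, merging overlapping bodies, and leaving out 16 genes of high IgG density were chosen after seeing the data.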

Additional observations from a re-analysis of the deposited data

Results flagged for a closer look

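Over the Vmn2r bodies, 1 of the 4 H3K4me3 libraries stood apart: WT replicate 1 had a density of 0.184, and the other libraries lay between 0.152 and 0.157, so that the gap took 0.866 of the whole range (above Dixon's critical value for 4 libraries). The library is the shallowest for H3K4me3, with 784360 distinct fragments, of which 532 fell over Vmn2r bodies. Chance flags about 1 in 20 such groups, and 12 were examined. Whether depth had a part in it was not tested.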

How the results depend on the processing

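Values are log2 differences unless said otherwise. Of the recomputed values, 169 kept direction and side of the threshold, 61 kept the direction and no longer passed, 2 newly passed, and 16 changed sign. Among the 169 are counts of called genes or groups that stayed at 0 and have no direction. Most of the 61 come from settings with too few libraries or animals for the permutation tests to pass 0.05. Over bodies with at least 80% unique words, H3K9me3 against IgG was 0.38, H3K9me3 over exons against introns 2.21 (exact permutation p = 0.114), H3K4me3 at start sites -0.42, the H3K4me3 difference of Vmn1r and Vmn2r 1.35 (exact permutation p = 0.0286, against 0.21 and p = 0.486 over all bodies), and H3K4me3 in KO against WT 0.011. Without chromosome 7, a choice made after seeing the data, H3K9me3 against IgG was 0.10, relative to other genes 0.81, and Vmn1r against Vmn2r -0.16. With every deposited fragment, Vmn1r against Vmn2r was -0.42 for H3K9me3 and -0.18 for H3K4me3, KO against WT was -0.11 for H3K9me3, and the median of all tested genes in KO against WT moved to -0.26 (receptors -0.15). With the mean of the bodies' own densities, H3K27me3 against IgG was -0.80 (exact permutation p = 0.0571), and KO against WT was -0.017 for H3K9me3 and 0.13 for IgG. The causes were not tested. With the replicate block (sign flips over 4 animals, smallest p 0.125), the values could not pass 0.05 and were 1.06, -1.14, and -1.08 against IgG for H3K9me3, H3K27me3, and H3K4me3, 1.77, -1.58, and -1.64 relative to other genes, 0.74 for exons, and -1.98 for start sites. The block gave 2 receptors called in H3K9me3 against 0 without it (16 against 0 genes, and 4 against 0 genes for H3K27me3, none a receptor), and called 0 genes for H3K4me3, as without it. In WT and KO alone, where 2 against 2 libraries cannot pass, the same values were 0.99 and 1.13, -1.22 and -1.06, -1.03 and -1.13 against IgG, 1.70 and 1.83, -1.68 and -1.48, -1.56 and -1.72 relative to other genes, 0.79 and 0.69 for exons, and -2.06 and -1.89 for start sites, and the H3K4me3 difference of Vmn1r and Vmn2r was -0.017 in KO. Leaving out 1 replicate of 1 genotype at a time (3 against 3, smallest p 0.1), the ranges were 1.01 to 1.14, -1.25 to -1.08, and -1.19 to -1.003 against IgG, 1.62 to 1.89, -1.69 to -1.51, and -1.80 to -1.53 relative to other genes, 0.66 to 0.80 for exons, -2.13 to -1.85 for start sites, and 0.080 to 0.33 for H3K9me3 of Vmn1r against Vmn2r. In KO against WT they were -0.27 to 0.47 for H3K27me3 density and -0.27 to 0.17 for IgG density, and -0.017 to 1.21 for the H3K9me3 and -0.25 to 1.73 for the H3K27me3 fragment ratio, negative without KO replicate 2 or without WT replicate 1, which leave unequal numbers of each pair. Without KO replicate 1, limma-voom called 4 genes for H3K9me3 and 64 for H3K27me3, none of them a receptor, with 1 KO library that is assumed to vary like the 2 WT libraries, which alone give the spread. IgG depth, at 232 to 397 fragments over all receptor bodies, limits every comparison with it.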
